A study of Mus musculus with 8 samples.

Results

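The genes encoding the transcription factors Nrf1 and Nrf2, the Nrf2 inhibitor Keap1 and a set of their best known antioxidant targets were examined in the RNA-seq of mouse muscles with UBA1 knockdown. They are the 10 genes *Nfe2l1*, *Nfe2l2*, *Keap1*, *Hmox1*, *Nqo1*, *Gclc*, *Gclm*, *Txnrd1*, *Srxn1* and *Slc7a11*, taken by symbol from the 41709 genes of the deposited values. All 10 were found. The samples are tibialis anterior (TA) muscles, collected 7 days after electroporation from male C57BL/6J mice aged 3 months. One leg of each mouse received a pool of *Uba1* siRNAs (4 muscles) and the other leg a pool of non-targeting (NT) siRNAs (4 muscles), at 1500 pmol in 30 μl. Both groups were thus injected and electroporated, and untreated muscle was not analysed here. Same-numbered replicates are the legs of one mouse. In the sample names the letter R goes with NT siRNAs and the letter L with *Uba1* siRNAs throughout, so leg and siRNA cannot be told apart. The whole muscle was sampled, with its vessels, connective tissue and immune cells.

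Nrf1 (encoded by *Nfe2l1*) and Nrf2 (encoded by *Nfe2l2*) are transcription factors of the cap'n'collar family, which bind antioxidant response elements in DNA as dimers with small Maf proteins. Both are short-lived proteins controlled by ubiquitin. Keap1 brings Nrf2 to a cullin 3 ubiquitin ligase, and oxidants that modify Keap1 let Nrf2 accumulate. Nrf1 is made in the endoplasmic reticulum, from where it is extracted and degraded, and when the proteasome is impaired it is processed into an activator of proteasome genes. Levels of these proteins were not measured here, and what follows is mRNA.

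*Uba1* mRNA was between 59.0 and 63.6 TPM in the muscles with NT siRNAs and between 6.77 and 23.1 TPM in those with *Uba1* siRNAs, lower in 4 of 4 pairs (log2FC -1.98, adjusted p = 0.0527 from limma, and 0.0278 with the replicate block). The levels are transcripts per 1000000 (TPM), which are set per transcript length and therefore comparable between genes, and which sum to 1000000 in every muscle. The number of reads behind them is unknown. A log2FC is the difference of mean log2(TPM + 1), *Uba1* siRNAs minus NT siRNAs. The limma test took in the 11530 genes that reached 1 TPM in 4 or more muscles, and 0.0260% of them passed an adjusted p of 0.05. The median log2FC of all genes tested was 0.11 with the deposited TPM and 0.0016 after median-ratio scaling, so values near 0.11 are those of a typical gene. The tissue was checked by its markers. The 11 myofiber markers *Acta1*, *Ckm*, *Myh1*, *Myh2*, *Myh4*, *Tnnt3*, *Tnni2*, *Pvalb*, *Actn3*, *Mylpf* and *Ttn* were present in every sample and summed to between 103290 and 148073 TPM. The sum was between 133684 and 146543 TPM with NT siRNAs, and lowest in *Uba1* replicates 2 (103290 TPM) and 4 (120888 TPM). Of the 11, 3 had a log2FC above 0 (against 81.8% of all genes), with a median of -0.066. In limma 0 of them had an unadjusted p under 0.05.

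None of the 10 genes passed the adjusted p. Of the 10, 9 passed the filter on low values and *Slc7a11* did not. In the limma test, 0 of the 9 had an adjusted p under 0.05 and 1, *Nfe2l1*, had an unadjusted p under 0.05, toward higher values, a call that 16.0% of all genes tested received. No gene of the 10 had such a p toward lower values, against 1.98% of all genes. The Kruskal-Wallis test named in the study's methods gave *Nfe2l1* alone of the 9 an unadjusted p under 0.05, the smallest that it can give in this design, and since 0 of all genes tested passed its adjusted p, it adds nothing on the members after adjustment. The log2FC of the 9 ranged from -0.38 to 0.18 with a median of 0.045, and 5 of the 9 were above 0, against 81.8% of all genes tested. After median-ratio scaling 4 of the 9 were above 0, against 50.7% of all genes. With the replicate block, which compares the legs within each mouse, the limma test again passed 0 of the 9 after adjustment. An unadjusted p under 0.05 then went to 3 genes, *Nqo1* toward higher and *Nfe2l2* and *Srxn1* toward lower values, and no longer to *Nfe2l1*. In that fit 22.4% of all genes had such a p toward higher and 2.80% toward lower values.

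**Figure D1:**
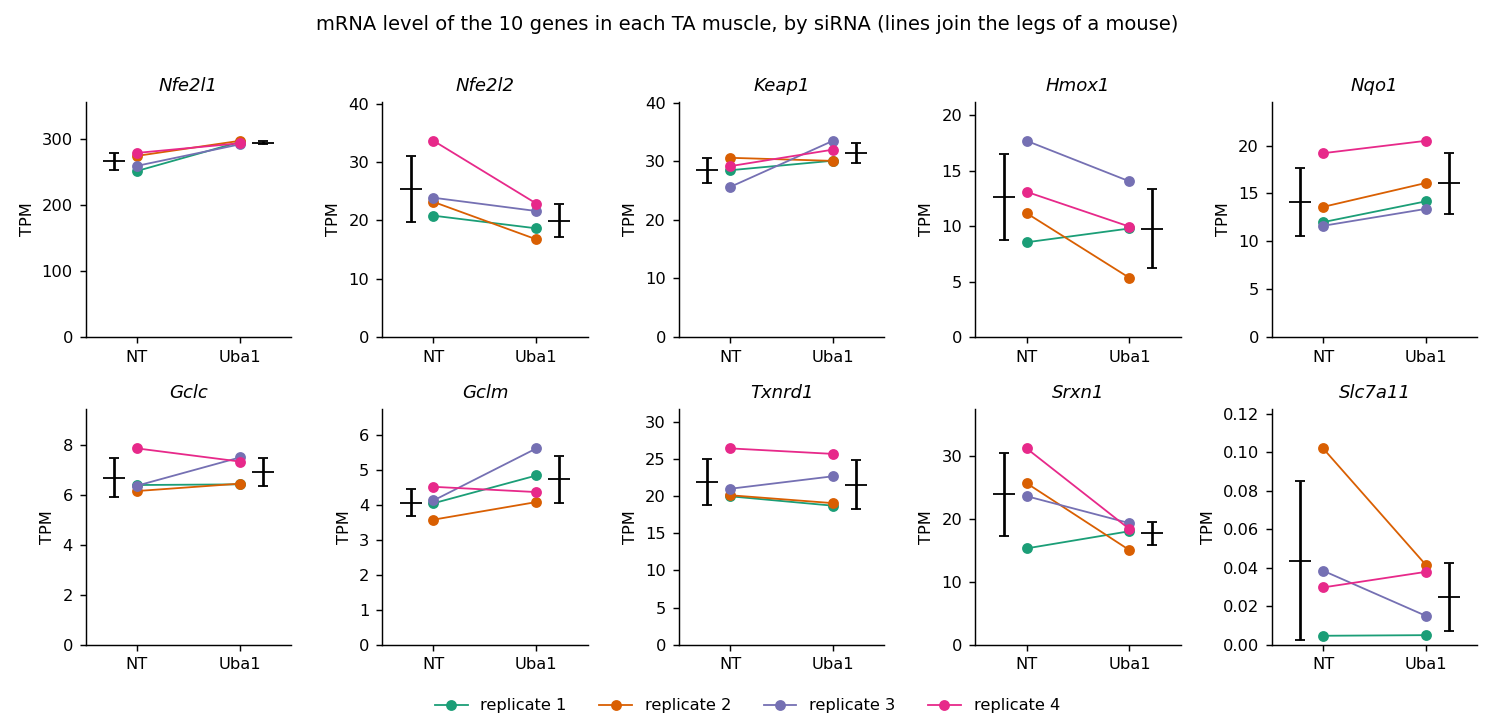
TPM (y axis, from 0) of each of the 10 genes in the muscles with NT or *Uba1* siRNAs (x axis). Points are muscles, lines join the legs of a mouse, and black marks give mean ± SD (n = 4). *Nfe2l1* was higher and *Nfe2l2* lower in 4 of 4 pairs, and the ranges of the groups overlap for every gene but *Nfe2l1*.

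*Nfe2l1* was by far the most abundant of the 10 mRNAs, and its level was slightly higher with *Uba1* siRNAs. In GRCm39 the gene spans 96705767 to 96720813 of chromosome 11 (minus strand). In replicates 1 to 4 its mRNA was at 252, 275, 259.6 and 279 TPM with NT siRNAs and at 296, 298, 292 and 294 TPM with *Uba1* siRNAs. All muscles with *Uba1* siRNAs were above all muscles with NT siRNAs, which held for 10.6% of all genes tested. The mean went from 266 ± 12.8 to 295 ± 2.34 TPM (SD, n = 4 muscles each). The log2FC was 0.15 (standard error 0.0572, 95% interval 0.019 to 0.28, adjusted p = 0.234 from limma). It was higher in 4 of 4 pairs, as were 32.2% of all genes. Its unadjusted p was no longer under 0.05 without NT replicate 1, NT replicate 3 or *Uba1* replicate 4 (limma, 0.0879, 0.0804 and 0.0561). After median-ratio scaling the log2FC was 0.026, close to that of a typical gene. Its mean over the 8 muscles ranked 217 among the genes tested, above 98.1% of them.

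*Nfe2l2* went the other way. Its gene spans 75504739 to 75534985 of chromosome 2 (minus strand). The mRNA stood at 20.8, 23.2, 23.9 and 33.6 TPM with NT siRNAs and at 18.6, 16.7, 21.6 and 22.9 TPM with *Uba1* siRNAs in replicates 1 to 4. Each muscle with *Uba1* siRNAs was below the contralateral one, but the groups overlapped. A lower value in 4 of 4 pairs was seen for 2.98% of all genes tested. The mean went from 25.4 ± 5.67 to 19.95 ± 2.79 TPM (SD, n = 4 each), a difference of about 1 SD of the muscles with NT siRNAs. The log2FC was -0.32 (standard error 0.149, 95% interval -0.66 to 0.018, adjusted p = 0.297 from limma). With the replicate block its standard error shrank to 0.0878 and its adjusted p was 0.113 (limma). With the block and median-ratio scaling together the log2FC was -0.44 and the adjusted p 0.0489 (limma), the only setting tried in which any of the 10 genes passed. Without NT replicate 4, its highest muscle, the log2FC was -0.18. The opposite-strand transcript *E030042O20Rik*, which overlaps *Nfe2l2*, was at 1.72 TPM or less.

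*Keap1*, on chromosome 9 from 21141026 to 21150679 (minus strand), varied less. It measured 28.5, 30.6, 25.6 and 29.1 TPM with NT siRNAs and at 30.08, 30.05, 33.5 and 31.97 TPM with *Uba1* siRNAs. It was higher in 3 of 4 pairs and the groups overlapped. The log2FC was 0.14 (standard error 0.0718, 95% interval -0.022 to 0.30, adjusted p = 0.327 from limma), 0.021 after median-ratio scaling and 0.091 without NT replicate 3.

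Since the scaling moves all genes of a muscle together, ratios of 2 mRNAs within a muscle do not depend on it. Such ratios were computed for 3 pairs of genes, which were chosen after the values of the genes had been seen, so that they are given as a description with no test. *Nfe2l1* mRNA was 12.1, 11.9, 10.9 and 8.30 times as abundant as *Nfe2l2* mRNA with NT siRNAs, and 15.9, 17.8, 13.5 and 12.9 times with *Uba1* siRNAs, in replicates 1 to 4. The groups did not overlap, with means of 10.8 ± 1.74 and 15.0 ± 2.26 (SD, n = 4 muscles each). The difference of the log2 ratio was 0.48. *Nfe2l2* mRNA was 0.731, 0.757, 0.933 and 1.15 times that of its inhibitor *Keap1* with NT siRNAs and 0.619, 0.557, 0.645 and 0.715 times with *Uba1* siRNAs. These groups did not overlap either, and the ratio was lower in 4 of 4 pairs. Both ratios hold *Nfe2l2*, so they are not separate results. After median-ratio scaling the log2FC of *Nfe2l2* was -0.44, and those of *Nfe2l1* and *Keap1* were 0.026 and 0.021. How many pairs of genes separate the groups in this way was not computed. The ratio of *Gclc* to *Gclm*, which encode the subunits of a single enzyme, was at 1.65 ± 0.0991 and 1.48 ± 0.178 (SD, n = 4 muscles each), lower in 4 of 4 pairs with groups that overlapped.

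**Figure D2:**
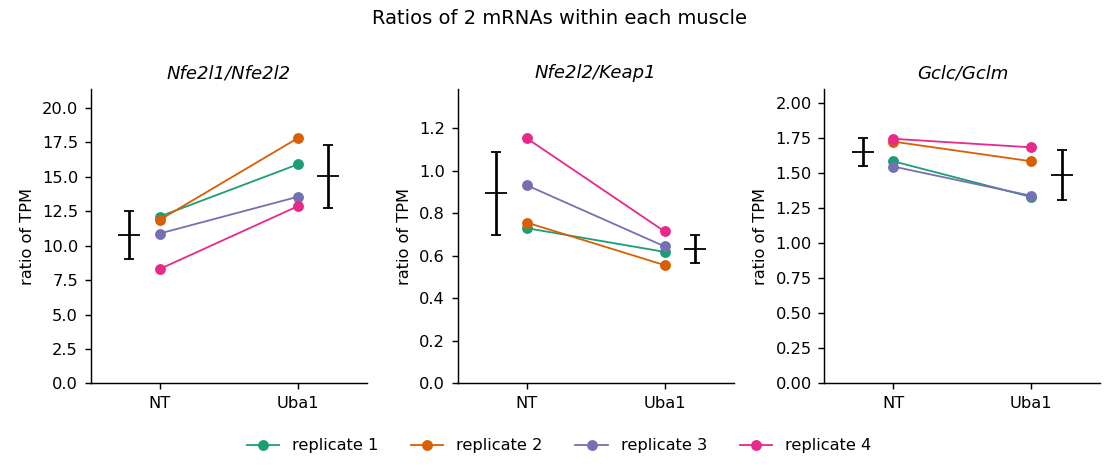
Ratio of the TPM of 2 genes (y axis, from 0) within each muscle with NT or *Uba1* siRNAs (x axis). Lines join the legs of a mouse and black marks give mean ± SD (n = 4). For *Nfe2l1*/*Nfe2l2* every muscle with *Uba1* siRNAs lies above every muscle with NT siRNAs, and for *Nfe2l2*/*Keap1* every one lies below.

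Among the target genes, *Srxn1* and *Hmox1* had the lowest log2FC, close to each other. *Srxn1* encodes sulfiredoxin, which repairs overoxidized peroxiredoxins, and lies on chromosome 2 from 151947436 to 151957687 (plus strand). Its mRNA was at 15.3, 25.7, 23.6 and 31.2 TPM with NT siRNAs and at 18.02, 15.01, 19.3 and 18.4 TPM with *Uba1* siRNAs. The muscles with *Uba1* siRNAs were close to each other, and only in replicate 1 was the muscle with NT siRNAs the lower one. The mean went from 23.9 ± 6.60 to 17.7 ± 1.86 TPM (SD, n = 4 each). The log2FC was -0.38 (standard error 0.185, 95% interval -0.80 to 0.036, adjusted p = 0.309 from limma). It went to -0.57 without NT replicate 1 and to -0.24 without NT replicate 4, so its size rests on single muscles.

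*Hmox1* encodes heme oxygenase-1, which breaks down heme and is abundant in macrophages that clear red blood cells. It lies on chromosome 8 from 75820241 to 75827217 (plus strand). Its mRNA was at 8.55, 11.2, 17.7 and 13.1 TPM with NT siRNAs and at 9.79, 5.33, 14.0 and 9.96 TPM with *Uba1* siRNAs, lower in 3 of 4 pairs. The lowest muscle was replicate 2 with *Uba1* siRNAs, which also had the least *Uba1*. The log2FC was -0.36 (standard error 0.270, 95% interval -0.97 to 0.25, adjusted p = 0.470 from limma). The log2FC was -0.13 without that muscle, -0.19 without NT replicate 3 and -0.54 without *Uba1* replicate 3.

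Markers of other cells varied between the muscles as well. The summed level of 16 leukocyte markers, mostly of macrophages, was 276, 332, 586 and 191 TPM with NT siRNAs and 448, 174, 604 and 216 TPM with *Uba1* siRNAs. In both groups replicate 3 had the most *Hmox1* and the highest sum, whereas NT replicate 4, second in *Hmox1*, had the lowest sum of its group. All of these markers were above 0, and the leukocyte marker *Ptprc* was at 0.937 ± 0.367 and 1.19 ± 0.659 TPM (SD, n = 4 muscles each), too low to be tested. Of the other 15 tested, 0 passed in limma, before or after adjustment. The 5 red blood cell transcripts (*Hba-a1*, *Hba-a2*, *Hbb-bs*, *Hbb-bt* and *Alas2*) summed to 2925, 6266, 6998 and 1923 TPM with NT siRNAs and to 3677, 2045, 2901 and 1841 TPM with *Uba1* siRNAs. All 5 had a log2FC below 0, with a median of -0.69, and 0 of them had an unadjusted p under 0.05 in limma, or 2 (*Alas2* and *Hbb-bt*) with the replicate block, toward lower values (against 2.80% of all genes). In whole muscle, fewer cells of a type and less RNA per cell cannot be told apart. The part of these cells in the values of *Hmox1* was not tested.

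*Nqo1* encodes NAD(P)H:quinone oxidoreductase 1, which reduces quinones, and its gene is on the minus strand of chromosome 8 from 108113835 to 108129934. The mRNA stood at 12.003, 13.6, 11.6 and 19.2 TPM with NT siRNAs and at 14.2, 16.1, 13.4 and 20.5 TPM with *Uba1* siRNAs. It differed more between mice than between legs, and it was higher in 4 of 4 pairs. The log2FC was 0.18 (standard error 0.171, 95% interval -0.20 to 0.57, adjusted p = 0.563 from limma), and 0.069 after median-ratio scaling. It was 0.33 without NT replicate 4 and 0.065 without *Uba1* replicate 4, the highest muscles of the groups. With the replicate block the standard error was 0.0624 and the adjusted p 0.145 (limma).

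*Gclc* and *Gclm* encode the catalytic and the modifier subunit of glutamate-cysteine ligase, the rate-limiting enzyme of glutathione synthesis. *Gclc* lies on chromosome 9 from 77661797 to 77701770 (plus strand) and *Gclm* on chromosome 3 from 122039126 to 122065061 (plus strand). *Gclc* mRNA was at 6.40, 6.16, 6.37 and 7.87 TPM with NT siRNAs and at 6.42, 6.45, 7.50 and 7.34 TPM with *Uba1* siRNAs. Its log2FC was 0.045 (standard error 0.0896, 95% interval -0.16 to 0.25, adjusted p = 0.786 from limma), and -0.061 after median-ratio scaling. With 1 muscle left out it went from 0.011 (without *Uba1* replicate 3) and 0.012 (without NT replicate 2) to 0.115 (without NT replicate 4). *Gclm* mRNA was at 4.04, 3.57, 4.12 and 4.51 TPM with NT siRNAs and at 4.84, 4.08, 5.61 and 4.36 TPM with *Uba1* siRNAs. Its log2FC was 0.17 (standard error 0.0991, 95% interval -0.051 to 0.40, adjusted p = 0.364 from limma), 0.073 after median-ratio scaling and 0.10 without *Uba1* replicate 3. Each was higher in 3 of 4 pairs, and the groups overlapped for both.

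*Txnrd1* encodes cytosolic thioredoxin reductase, which keeps thioredoxin reduced, and lies on chromosome 10 from 82669785 to 82733546 (plus strand). Its mRNA was at 20.02, 20.2, 21.04 and 26.5 TPM with NT siRNAs and at 18.8, 19.1, 22.7 and 25.8 TPM with *Uba1* siRNAs. The log2FC was -0.024 (standard error 0.123, 95% interval -0.30 to 0.25, adjusted p = 0.923 from limma), and -0.14 after median-ratio scaling. It was above 0 without NT replicate 4 (0.066), *Uba1* replicate 1 (0.036) or *Uba1* replicate 2 (0.028). The long noncoding RNA *Gm38560* overlaps *Txnrd1* on the opposite strand and was at up to 12.8 TPM. The paper's methods name an Illumina TruSeq library kit but not how reads were assigned by strand. Part of these values is thus uncertain, and the same holds for *Nfe2l2* and its overlapping transcript.

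*Slc7a11* encodes the cystine transporter xCT, which supplies cysteine for glutathione, and lies on chromosome 3 from 49846975 to 50398070 (minus strand). It was nearly silent, at 0.00455, 0.102, 0.0384 and 0.0297 TPM with NT siRNAs and at 0.00487, 0.0413, 0.0149 and 0.0378 TPM with *Uba1* siRNAs. The groups overlapped fully (exact permutation test on log2(TPM + 1), two-sided, p = 0.571). Its partner chain *Slc3a2*, which also serves other transporters, was at 17.5 ± 0.975 and 15.7 ± 1.72 TPM (log2FC -0.16, adjusted p = 0.350 from limma).

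**Figure D3:**
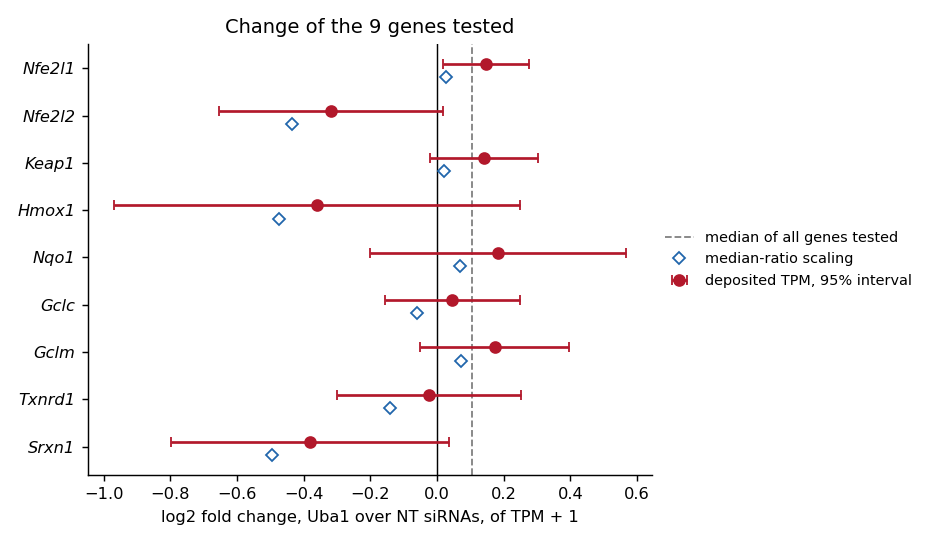
Log2FC (x axis) of the 9 genes tested (y axis), as the limma estimate on deposited TPM with its 95% interval (red) and the estimate after median-ratio scaling (blue diamonds). The dashed line is the median of all genes tested, 0.11. *Nfe2l2*, *Hmox1* and *Srxn1* lie below -0.3 with wide intervals, and the other 6 lie between -0.024 and 0.18.

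With NT siRNAs the 10 mRNAs thus ranked from *Nfe2l1* at 266 TPM, through *Keap1* at 28.4, *Nfe2l2* at 25.4, *Srxn1* at 23.9, *Txnrd1* at 21.9, *Nqo1* at 14.1, *Hmox1* at 12.6, *Gclc* at 6.70 and *Gclm* at 4.06, to *Slc7a11* at 0.0437 TPM. The ranges of the 4 muscles overlapped for the neighbours *Keap1* and *Nfe2l2*, *Nfe2l2* and *Srxn1*, *Srxn1* and *Txnrd1*, and *Nqo1* and *Hmox1*. The other neighbours in this order were set apart in every muscle.

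Mouse 4 had high levels of several of these mRNAs in both legs. NT replicate 4 was the highest of its group for *Nfe2l1*, *Nfe2l2*, *Nqo1*, *Gclc*, *Gclm*, *Txnrd1* and *Srxn1*, and *Uba1* replicate 4 the highest of its group for *Nfe2l2*, *Nqo1* and *Txnrd1*. As deviations from the group means over the 8 muscles, *Nfe2l2* and *Txnrd1* moved together (Pearson's r = 0.92), as did *Nfe2l2* and *Gclc* (0.92), *Gclc* and *Txnrd1* (0.92) and *Nfe2l2* and *Srxn1* (0.81). The value for *Nfe2l2* was 0.55 with *Hmox1* and 0.36 with *Keap1*, and that for *Nfe2l1* and *Srxn1* was 0.80. Such values were not computed over all genes. These are descriptions over 8 muscles of 4 mice, which share libraries and scaling. Over all genes tested, the mRNAs with patterns most like that of *Nfe2l2* by Pearson's r across the 8 muscles were *Ercc6l2* (0.98), *Elf2* (0.97), *Dnajb4* (0.97), *Zbtb2* (0.96) and *Hnrnpu* (0.95). Among those most like *Nfe2l1* were *Nrd1* (0.98), *Faf1* (0.98), *Psmd2* (0.98) and *Yaf2* (0.97). Those most like *Srxn1*, the gene with the largest absolute log2FC of the 9 in the main test, were *Hbegf* (0.96), *Nfatc1*, *Pprc1*, *Rlim* and *Slc38a2* (0.92 each).

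Nrf1 and Nrf2 act through antioxidant response elements, so the DNA before 1 start site of each member was searched for the core of this element, TGACNNNGC, on both strands. The search covered the 1000 bases before the start of the canonical GENCODE transcript in GRCm39. The core was present for 4 of the 10 genes, against 29.96% of 10856 genes tested that have 1 such transcript. The core followed by an A, a longer form of the same match, was present for 2 of the 10, against 8.74%. Without *Slc7a11*, which was not among the genes tested, the core was present for 3 of 9 and the longer form for 1 of 9. The matched letters are given here with 10 bases on either side and the core in capitals, each read 5′ to 3′ on the strand named.

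*Nfe2l2* (chr2:75535229-75535257, minus strand, 254 to 262 bases before the start): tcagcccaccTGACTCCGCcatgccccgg

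*Gclm* (chr3:122039062-122039090, minus strand, 46 to 54 bases before the start): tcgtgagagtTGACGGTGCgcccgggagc

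*Txnrd1* (chr10:82694938-82694966, minus strand, 57 to 65 bases before the start): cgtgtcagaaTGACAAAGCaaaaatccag

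*Txnrd1* (chr10:82694632-82694660, minus strand, 363 to 371 bases before the start): gcactggctgTGACCCTGCcaaatagttg

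*Slc7a11* (chr3:50398915-50398943, plus strand, 862 to 870 bases before the start): aggaaggagaTGACAGGGCatattttttg

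The match of *Txnrd1* nearest the start and that of *Slc7a11* have the longer form. Both matches of *Txnrd1* lie within the span of the gene given above, since another annotated transcript starts further upstream. *Nfe2l1*, *Keap1*, *Hmox1*, *Nqo1*, *Gclc* and *Srxn1* have no match in this window. Genes with and without a match were found on both sides of 0, since *Nfe2l2* (log2FC -0.32) and *Gclm* (0.17) have one while *Srxn1* (-0.38) and *Nqo1* (0.18) have none. A match is a run of letters and no evidence of binding.

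Among the partners of Nrf1 and Nrf2, *Maff* and *Mafk* were lower with *Uba1* siRNAs in every pair. Of 7 further genes of the family, its small Maf partners and the competing Bach repressors, 4 were tested, and in limma 0 passed the adjusted p while 2 had an unadjusted p under 0.05, both lower (1.98% of all genes). Both encode small Maf proteins, which lack an activation domain of their own. *Maff* was at 8.85, 13.4, 7.47 and 10.5 TPM with NT siRNAs and at 2.38, 3.99, 2.69 and 6.65 TPM with *Uba1* siRNAs in replicates 1 to 4. *Mafk* was at 22.1, 35.7, 22.2 and 36.6 TPM with NT siRNAs and at 13.7, 17.5, 15.0 and 21.6 TPM with *Uba1* siRNAs. In both genes all muscles with *Uba1* siRNAs were below all muscles with NT siRNAs, as for 1.01% of the genes tested.

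The log2FC of *Maff* was -1.22 (standard error 0.258, adjusted p = 0.129 from limma) and that of *Mafk* -0.73 (standard error 0.199, adjusted p = 0.164 from limma). With the replicate block, 0.494% of all genes passed, *Maff* and *Mafk* among them (adjusted p = 0.0359 and 0.0278 from limma). The third small Maf gene, *Mafg*, was at 26.4 ± 3.28 and 29.0 ± 3.36 TPM (SD, n = 4 each; adjusted p = 0.513 from limma). The repressor *Bach1* was at 10.2 ± 2.29 and 12.2 ± 1.21 TPM (adjusted p = 0.346 from limma). The relatives *Nfe2* and *Nfe2l3* were at or below 0.151 TPM in every muscle, and *Bach2* at or below 0.804 TPM.

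**Figure D4:**
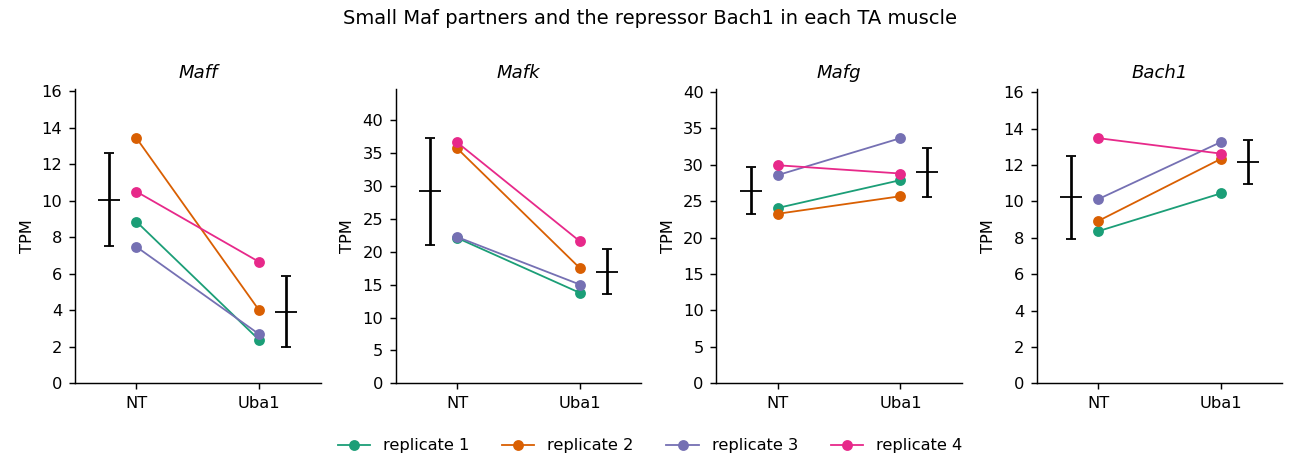
TPM (y axis, from 0) of the small Maf genes *Maff*, *Mafk* and *Mafg* and of the repressor gene *Bach1* in each muscle with NT or *Uba1* siRNAs (x axis). Lines join the legs of a mouse and black marks give mean ± SD (n = 4). Every muscle with *Uba1* siRNAs lies below every muscle with NT siRNAs for *Maff* and *Mafk*, but not for *Mafg* or *Bach1*.

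Genes that act on the stability or maturation of Nrf1 and Nrf2 had list medians near that of all genes, with single genes further from it. The Nrf1 list held the protease *Ddi2*, the glycanase *Ngly1*, *Vcp*, *Syvn1*, *Sel1l*, *Fbxw7*, *Btrc*, *Ogt* and *Hcfc1*. All 9 were tested, 0 passed the adjusted p in limma, and 2 (22.2%, against 16.0% of all genes) had an unadjusted p under 0.05 toward higher values, with a median log2FC of 0.10. With the replicate block 1, *Ogt*, had such a p (against 22.4% of all genes). *Ogt*, which attaches O-linked N-acetylglucosamine to proteins, was at 35.7 ± 6.40 and 48.3 ± 8.22 TPM (SD, n = 4 each; log2FC 0.43, adjusted p = 0.208 from limma). *Sel1l* was at 15.3 ± 0.905 and 17.2 ± 0.857 TPM (log2FC 0.16, adjusted p = 0.256 from limma). *Vcp*, the most abundant of them, was at 219 ± 16.1 and 237 ± 18.7 TPM (adjusted p = 0.467 from limma). The Nrf2 list held *Cul3*, *Rbx1*, *Cul1*, *Skp1*, *Btrc*, *Gsk3b*, *Dcaf11*, *Sqstm1*, *Dpp3* and *Pgam5*. Of these 10, 0 passed the adjusted p in limma and 1, *Gsk3b*, had an unadjusted p under 0.05 (log2FC 0.23; 1 of 10, against 16.0% of all genes toward higher values), with a median of 0.11. *Sqstm1*, which encodes the Keap1-binding autophagy receptor p62, was at 290.4 ± 46.4 and 295 ± 21.4 TPM (adjusted p = 0.876 from limma).

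The proteasome genes, which Nrf1 is known to activate, also had a list median near that of all genes. Of 34 genes of the 26S proteasome and its assembly, 0 passed the adjusted p in limma and 3 had an unadjusted p under 0.05 toward higher values (8.82%, against 16.0% of all genes). The log2FC was above 0 for 29 of the 34 (against 81.8% of all genes), with a median of 0.098. After median-ratio scaling it was above 0 for 9 of the 34 (against 50.7% of all genes), with a median of -0.023. *Psmd2*, a base subunit, was at 121 ± 11.2 and 144 ± 4.48 TPM (SD, n = 4 each; log2FC 0.25, adjusted p = 0.174 from limma). The log2FC was 0.20 for *Psmb3*, 0.18 for *Psma4* and 0.028 for *Psmb5*, the most abundant of them (limma, adjusted p = 0.242, 0.267 and 0.890).

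Genes that make or use glutathione beside *Gclc* and *Gclm* were measured as well. Of 24 such genes 18 were tested, 0 passed the adjusted p in limma and 5 (27.8%, against 16.0% of all genes) had an unadjusted p under 0.05 toward higher values, with a median log2FC of 0.13. *Oplah*, which recycles oxoproline to glutamate, was at 13.8 ± 0.691 and 17.9 ± 1.12 TPM (SD, n = 4 each; log2FC 0.36, adjusted p = 0.111 from limma). The membrane-bound transferase *Mgst1* was at 23.8 ± 3.47 and 33.7 ± 3.31 TPM (log2FC 0.49, adjusted p = 0.137 from limma). *Mgst3* was at 161 ± 12.02 and 199.9 ± 11.6 TPM (log2FC 0.32, adjusted p = 0.143 from limma). These 3 were higher in 4 of 4 pairs, as the rule for naming genes required and as 32.2% of all genes were. Their groups did not overlap, with the higher values under *Uba1* siRNAs, as for 10.6% of all genes. *Gpx4*, which reduces lipid peroxides and was the most abundant, was at 323 ± 33.7 and 337 ± 59.0 TPM (adjusted p = 0.820 from limma). Transferases of the *Gstm* cluster are close paralogs that can share reads, so their values are uncertain. They are 4 of the 18 genes tested, and *Gstm1* is 1 of the 5.

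In the thioredoxin and peroxiredoxin system around *Txnrd1* and *Srxn1*, 0 of 18 genes passed the adjusted p in limma and 4 (22.2%, against 16.0% of all genes) had an unadjusted p under 0.05 toward higher values, with a median log2FC of 0.12. *Prdx6* was at 27.8 ± 0.566 and 32.5 ± 1.94 TPM (SD, n = 4 each; log2FC 0.22, adjusted p = 0.167 from limma). The log2FC was 0.20 for *Txnrd2*, the mitochondrial counterpart of *Txnrd1*, and 0.21 for *Prdx1*, a substrate of sulfiredoxin (limma, adjusted p = 0.182 and 0.202). *Txnip*, which encodes an inhibitor of thioredoxin, was at 487 ± 79.9 and 477 ± 55.2 TPM (adjusted p = 0.932 from limma).

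In heme and iron handling around *Hmox1*, 0 of 11 genes passed the adjusted p in limma and 1 (9.09%, against 16.0% of all genes) had an unadjusted p under 0.05 toward higher values, which with the replicate block became 2 (against 22.4% of all genes). The 1 gene was *Slc40a1*, which encodes the iron exporter ferroportin, at 8.05, 7.83, 7.40 and 7.93 TPM with NT siRNAs and at 9.72, 11.0, 10.3 and 10.6 TPM with *Uba1* siRNAs (log2FC 0.37, standard error 0.0636, adjusted p = 0.0760 from limma). *Hmox2*, the constitutive heme oxygenase, was at 25.3 ± 1.07 and 27.5 ± 1.74 TPM (adjusted p = 0.347 from limma). Ferritin heavy chain *Fth1* was at 560.0 ± 63.0 and 583 ± 97.1 TPM (SD, n = 4 each; adjusted p = 0.837 from limma), though its pseudogenes can take up reads.

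**Figure D5:**
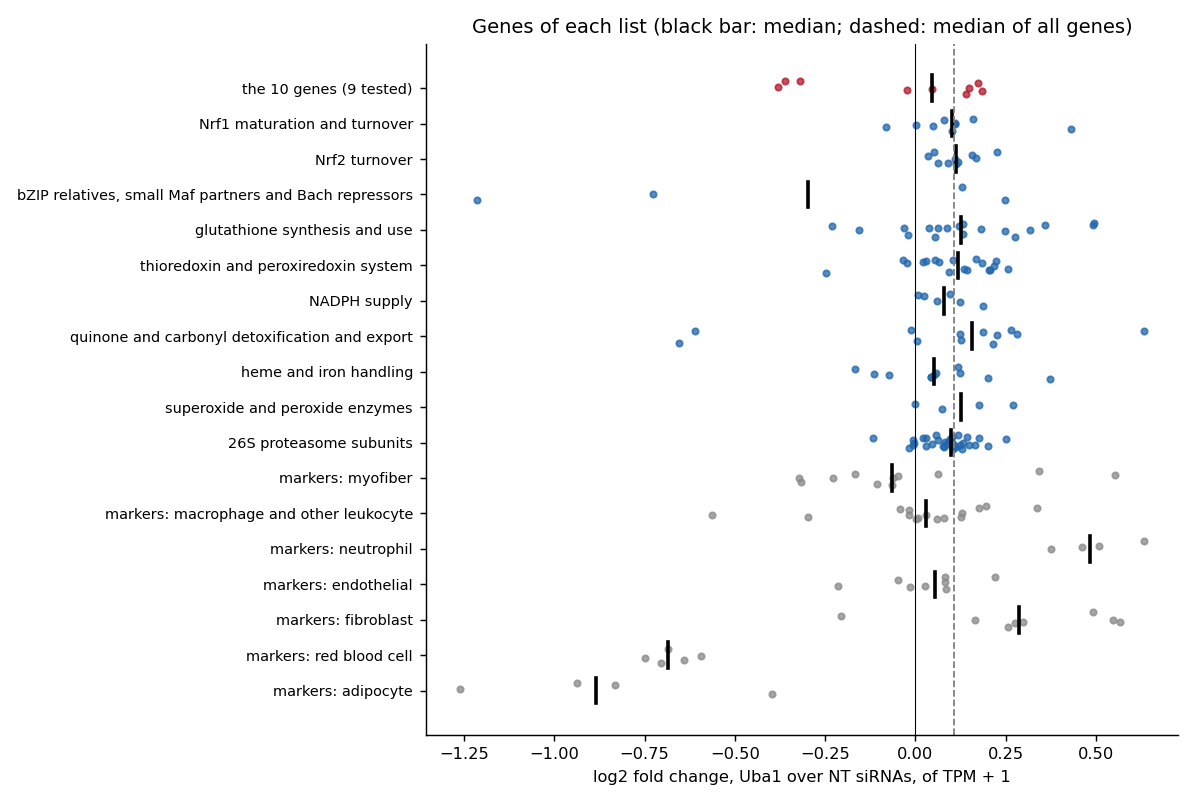
Log2FC (x axis) of every tested gene of the 10 genes (red), of related pathway lists (blue) and of cell type marker lists (grey), 1 list per row. Black bars are list medians and the dashed line is the median of all genes, 0.11. The pathway lists center near that line except the list with *Maff* and *Mafk*, and the red blood cell and adipocyte markers lie below 0.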

How the data were processed

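RNA-seq of 8 TA muscles was used. Per the paper's methods, the authors trimmed and filtered paired-end reads by quality and length, used CLC Genomics Workbench to align them to GRCm39, and deposited TPM per gene for each muscle. The annotation and the handling of multi-mapping reads are not given in the sources used here. TPM keep no depth, so precision was judged from the 4 muscles per group alone.

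Groups and replicate numbers were taken from the sample descriptions. The treatment tags name UBA2, UBA3 and UBA4 for 3 muscles whose descriptions name UBA1. Each column could be matched to 1 muscle.

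Differential expression was tested on log2(TPM + 1) with limma (version 3.58.1 in R 4.3.3; lmFit, eBayes with a trend), unpaired, over the genes reaching 1 TPM in 4 or more muscles, with Benjamini-Hochberg adjustment over all 11530. The fit was tested on simulated data. The values are TPM and no count model was used. *Slc7a11* was compared by exact permutation over the 8 muscles. The numbers pair legs of one mouse by the labels and methods. The correlations of paired deviations were -0.00037, 0.20, 0.58 and 0.54. Gene positions and sequences came from GENCODE M39 and GRCm39.

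The members and gene lists were chosen with earlier results of these data known. Genes named are the members, *Uba1*, up to 3 genes per pathway list with the smallest unadjusted p under 0.05 and 1 direction in 4 pairs, the most abundant gene of each list, and the 5 genes most like *Nfe2l1*, *Nfe2l2* and the member with the largest absolute log2FC, of which 1 is not reported here. *Ptprc*, *Slc3a2*, *Hmox2*, *Bach1*, *Gsk3b*, *Osgin1*, *Lep*, the overlapping genes and genes below the filter were added after their values were seen. The alternatives were a pseudocount of 0.1, no filter, a mean of 5 TPM or more, median-ratio scaling, quantile normalization, TPM without mitochondrial genes, the replicate block with and without median-ratio scaling, the Kruskal-Wallis test, and leaving out each muscle.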

Additional observations from a re-analysis of the deposited data

Results flagged for a closer look

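In 28 groups of 4 muscles (the 10 genes, *Uba1* and 3 ratios, by siRNA), 1 muscle lay far from the other 3 in 2 groups, where about 1 in 20 groups would by chance. *Gclc* was at 7.87 TPM in NT replicate 4, and the other 3 muscles with NT siRNAs were between 6.16 and 6.40 TPM. *Txnrd1* was at 26.5 TPM in the same muscle, and the other 3 were between 20.02 and 21.04 TPM. In the contralateral muscle, *Uba1* replicate 4, *Gclc* was at 7.34 and *Txnrd1* at 25.8 TPM.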

How the results depend on the processing

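Why these values moved was not tested. Shares of all genes at an unadjusted p under 0.05 were taken for the main test and the replicate block alone. The counts of the 10 genes at such a p in the other settings thus have no background here. The replicate block raised the number of genes past the adjusted p from 3 to 57, and together with median-ratio scaling to 76. Of the 10 genes, an unadjusted p under 0.05 was reached by 3 with the block (*Nfe2l2*, *Nqo1* and *Srxn1*) and by 3 with the block and median-ratio scaling (*Nfe2l2*, *Srxn1* and *Hmox1*), when 1, *Nfe2l2*, also passed the adjusted p. Of the named genes, the block added *Uba1*, *Maff*, *Mafk* and *Aox1* to those past the adjusted p and no other. Other numbers of genes past it were 11 (mean of at least 5 TPM), 23 (median-ratio scaling), 28 (quantile normalization), 14 (no mitochondrial genes), 0 (Kruskal-Wallis test), and 2 to 39 when single muscles were dropped, with 39 without *Uba1* replicate 4, 6 without NT replicate 1, and 5 without NT replicate 3 or *Uba1* replicate 2. Of the 10 genes, an unadjusted p under 0.05 was reached by 2 after median-ratio scaling and by 2 after quantile normalization (*Nfe2l2* and *Srxn1*), by *Gclm* in place of *Nfe2l1* without mitochondrial genes, and by 0 to 2 when single muscles were dropped: 0 without NT replicate 3, *Nfe2l2* and *Srxn1* without NT replicate 1, *Nfe2l1* and *Nqo1* without NT replicate 4, *Nfe2l2* in place of *Nfe2l1* without *Uba1* replicate 4. *Uba1* passed the adjusted p with a log2FC of -1.98 (mean of at least 5 TPM, or the block), -2.09 (median-ratio scaling without or with the block), -2.06 (quantile normalization) and -1.996 (no mitochondrial genes). It ranged from -2.18 without *Uba1* replicate 4 to -1.64 without *Uba1* replicate 2, passing in both cases. *Gclc* turned to -0.061 after median-ratio scaling, without or with the block, and to -0.062 after quantile normalization. When single muscles were dropped, *Txnrd1* ranged from -0.11 without *Uba1* replicate 4 to 0.066 without NT replicate 4, and it was -0.14 after median-ratio scaling. A pseudocount of 0.1 and no filter on low values changed none of these counts and turned no sign of the 9 genes, but with no filter the median log2FC over the 21532 genes then tested was 0.048 in place of 0.11. Depth is unknown, so what it limits cannot be given.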

Other observations

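Genes for the removal of quinones, carbonyls and drug conjugates beside *Nqo1* were also measured. Of 17 such genes 12 were tested, 0 passed the adjusted p in limma and 4 had an unadjusted p under 0.05, 3 higher (25.0%, against 16.0% of all genes) and 1 lower (against 1.98%), with a median log2FC of 0.16. With the replicate block 4 had such a p toward higher (against 22.4% of all genes) and 2 toward lower values (against 2.80%). *Aox1*, which encodes aldehyde oxidase, was at 5.91, 5.69, 6.79 and 8.37 TPM with NT siRNAs and at 10.5, 10.1, 11.7 and 11.0 TPM with *Uba1* siRNAs. Every muscle with *Uba1* siRNAs was above every muscle with NT siRNAs, as for 10.6% of all genes tested (log2FC 0.63 ± 0.109 standard error). In limma *Aox1* had an adjusted p of 0.0760, or of 0.0377 with the replicate block. *Ugdh*, which makes the UDP-glucuronic acid used to conjugate drugs and to build matrix glycans, was at 5.36 ± 1.10 and 3.03 ± 0.599 TPM (SD, n = 4 each, log2FC -0.66, adjusted p = 0.139 from limma). It was lower in 4 of 4 pairs, as the rule for naming genes required and as 2.98% of all genes were. The log2FC was 0.27 for the epoxide hydrolase *Ephx1* and 0.12 for *Akr1b10*, the most abundant (limma, adjusted p = 0.277 and 0.493). *Osgin1*, an oxidative stress-induced growth inhibitor gene, was at 18.2 ± 9.25 and 11.3 ± 5.32 TPM, lower in 3 of 4 pairs (log2FC -0.61, adjusted p = 0.378 from limma). With the replicate block its unadjusted p was 0.00959 and its adjusted p 0.119 (limma).

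Of the 6 genes that supply NADPH, 0 passed in limma before or after adjustment, and the most abundant, malic enzyme *Me1*, was at 118 ± 13.8 and 118 ± 8.56 TPM (SD, n = 4 each; adjusted p = 0.975 from limma). Of the 4 superoxide dismutase and catalase genes, 0 passed the adjusted p in limma and 1 had an unadjusted p under 0.05 toward higher values (against 16.0% of all genes), *Cat* with a log2FC of 0.27 (adjusted p = 0.182 from limma).

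Marker lists of other cells gave the following. The 8 fibroblast markers had a median log2FC of 0.29, and 2 had an unadjusted p under 0.05 in limma, both higher (against 16.0% of all genes), or 4 with the replicate block (against 22.4%). The 4 tested neutrophil markers had a median of 0.48 and the 8 endothelial markers of 0.053, with 0 at an unadjusted p under 0.05 in limma. With the replicate block 1 neutrophil marker had one, toward higher values (against 22.4% of all genes). The 4 tested adipocyte markers had a median of -0.88 and 1 had an unadjusted p under 0.05 in limma toward lower values (against 1.98% of all genes), or 3 with the replicate block (against 2.80%). Their sum with *Lep* was 64.4, 75.7, 66.5 and 33.2 TPM with NT siRNAs and 55.7, 7.44, 57.9 and 10.8 TPM with *Uba1* siRNAs, low in *Uba1* replicates 2 and 4. Whether these cells bear on the 10 genes was not tested.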
